A study of Mus musculus with 12 samples.

Results

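TRIM genes encode tripartite motif proteins, and 68 of the 55536 genes in the tables were protein-coding genes named Trim and a number, with or without a trailing letter. Of these, 46 had at least 10 reads in at least 4 libraries and were tested among 17919 genes that passed the same filter. The other 22 did not pass and were Trim6, Trim10, Trim29, Trim30b, Trim30c, Trim31, Trim34b, Trim38, Trim40, Trim42, Trim43b, Trim50, Trim52, Trim54, Trim55, Trim58, Trim60, Trim61, Trim63, Trim72, Trim75 and Trim80. The symbols alone decided which genes belong to the family, but the family was chosen with earlier results of these data known. Read counts decided which of its genes were tested.

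RNA-seq was performed on primary mouse oligodendrocyte precursor cells (OPCs, proliferating progenitors of the myelin-forming oligodendrocytes) in 3 groups of 4 libraries each. Ctr-OPCs were left untreated, Dexa-treated OPCs received 1 µM of the synthetic glucocorticoid dexamethasone for 48 h, and IFN-γ-treated OPCs received 100 ng/ml of the cytokine interferon-γ for 48 h. All 3 groups came from P4-P6 pups, whose brains were pooled within each experiment, and the 4 replicates of a condition came from different litters. Cells of every group were isolated by a Sox10-GFP reporter or with CD140a beads and were cultured with PDGFaa and bFGF. The study's reporter mouse carries Cre under Sox10 and an EGFP allele that Cre switches on, so GFP marks cells with a history of Sox10 expression, and the labels do not say which libraries came from bead-isolated cells. The labels also give the mouse model of every library as EAE, an immunisation model of multiple sclerosis, although the culture protocol describes no immunisation. The comparisons ask how an inflammatory cytokine and an anti-inflammatory hormone change gene expression in OPCs.

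TRIM proteins share a RING domain, a B-box and a coiled coil, and most act as E3 ubiquitin ligases, which choose the protein that receives ubiquitin. A few lack the RING. They are sorted by the domain at their carboxy terminus, of which PRY-SPRY is the most common, and many PRY-SPRY members recognise viral proteins or act on the sensors of foreign nucleic acid. Interferons are known to raise a subset of them in many cell types, and several TRIM genes of the nervous system act on microtubules and axons instead.

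Depth and identity bear on every value below. Complete tables held 19209063 to 52074652 reads in genes, while that of Dexa replicate 3 stopped part-way, so Dexa values have n = 3 except for genes that this table listed whole. Levels are given as TMM-scaled CPM (counts per 1e6 reads), which compares libraries for one gene, and as TPM, which corrects for transcript length and compares genes. All 8 OPC markers were detected, and their summed level was 5572 to 13122 CPM in Ctr-OPCs, 6309 to 14562 in Dexa-treated and 3971 to 9026 in IFN-γ-treated OPCs. edgeR called 5 of the 8 lower in IFN-γ-treated OPCs, against 15.3% of all genes tested, with the largest fall in Gpr17 (log2 fold change -2.09). The 14 microglial markers stayed under 1 CPM each in all complete libraries and summed to 0.57 to 1.58, 0.741 to 1.46 and 1.12 to 2.11 CPM in the same order of groups. Of the 8 astrocyte markers, IFN-γ treatment raised 3 and lowered 3, against 16% and 15.3% of all genes tested. The largest changes were in Gfap (3.99) and S100b (-1.53). Their summed levels were 571 to 1526, 1176 to 1975 and 1063 to 1590 CPM over the 8 markers. Neuronal markers summed to 891 to 1429, 907 to 1288 and 1165 to 1307 CPM, and endothelial markers to 3.99 to 6.13, 5.8 to 11.3 and 2.69 to 4.45 CPM. Map2 made up most of the neuronal sums, with means of 1131, 1026 and 1101 CPM. Among the 5 neuronal markers tested, edgeR called Tubb3 (log2 fold change 1.52) and Syt1 (1.11) higher and Snap25 (-0.46) lower with IFN-γ. With dexamethasone it called 1 of 8 OPC markers (Cspg4, 0.65) and 1 of 8 astrocyte markers (Aldoc, 0.98) higher. It also called 1 of 5 neuronal (Snap25, 0.67) and 1 of 4 tested endothelial markers (Flt1, 1.01) higher, against 1.31% of all genes. No tested marker was called lower with dexamethasone. The part of these other cell types in the results was not tested, and in bulk RNA fewer cells of a type and less RNA per cell cannot be told apart.

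Promoters of the TRIM genes that rose most are shown first, because most of them carried the same letters. RefSeq promoter windows of 300 bases (250 before to 50 after a start, build GRCm38.p6) were matched by symbol for 53 of the 68 genes. On either strand, 3 motifs were searched. They were TTTC, any 2 bases and TTTC again, the repeat of interferon-stimulated response elements, TTCNNNGAA, the letters of a gamma-activated site, and ACANNNTGT, the core of a glucocorticoid response element. The first motif was present for 3.99% of all 27025 genes with a window and for 9 of the 53 TRIM genes, which were Trim2, Trim5, Trim12a, Trim12c, Trim21, Trim26, Trim30a, Trim30d and Trim34a. The stretches below run 5′ to 3′ on the gene's strand, with the motif or overlapping motifs in capitals, for the 8 of these genes that were called higher in IFN-γ-treated OPCs.
Trim21, chr7:102565435-102565494, minus strand: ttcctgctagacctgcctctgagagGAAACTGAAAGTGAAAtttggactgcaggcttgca
Trim34a, chr7:104244442-104244501, plus strand: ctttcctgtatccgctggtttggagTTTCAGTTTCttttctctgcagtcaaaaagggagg
Trim5, chr7:104288121-104288180, minus strand: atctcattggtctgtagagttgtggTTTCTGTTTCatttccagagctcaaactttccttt
Trim12a, chr7:104315451-104315510, minus strand: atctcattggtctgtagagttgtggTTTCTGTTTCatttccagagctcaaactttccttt
Trim12c, chr7:104353344-104353403, minus strand: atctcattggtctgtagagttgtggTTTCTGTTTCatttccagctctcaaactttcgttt
Trim30a, chr7:104465195-104465254, minus strand: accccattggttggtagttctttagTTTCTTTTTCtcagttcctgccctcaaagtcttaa
Trim30d, chr7:104507856-104507915, minus strand: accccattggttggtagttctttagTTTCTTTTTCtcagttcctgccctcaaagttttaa
Trim26, chr17:36836961-36837020, plus strand: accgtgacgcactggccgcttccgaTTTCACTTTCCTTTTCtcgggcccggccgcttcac

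These stretches are not independent of each other, since several belong to duplicated genes. Trim5 and Trim12a shared all 60 bases, Trim12c shared 57 of 60 with both, and Trim30a (the window shown, of 2) shared 59 of 60 with Trim30d. The motif began 13 bases after the RefSeq start in Trim21 and 10 after it in Trim34a and Trim12a, and 29 to 49 bases before it in Trim12c, Trim30a, Trim30d and Trim5, while in Trim26 it lay 160 bases before. By call, 8 of 16 genes that were called higher and had a window held it, against 1 of 19 of the other tested genes, Trim2, and 0 of 18 of the untested genes. Trim5, Trim30a and Trim34a among the 8, and Trim69 among the 16, passed the count filter only through the IFN-γ libraries, and without these genes the count was 5 of 12. Trim12a and Trim30d, among these 5, also needed IFN-γ libraries to pass. The second motif was present for 9.55% of all genes and for 6 of the 53 TRIM genes, of which 1, Trim46, was called higher. Windows of Trim25, Trim56 and Trim69, which also rose strongly, held neither set of letters. The third motif was present for 7.9% of all genes and for 4 of the 53 TRIM genes, among them Trim2 but not Trim9. A match describes letters in a window and is not evidence of a bound site.

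IFN-γ treatment raised a group of TRIM genes by large factors, while other members changed little or were not called. Of the 46 tested genes, 19 were called higher (41.3%; 16% of all genes tested) and 6 lower (13.0%; 15.3% of all genes) at an adjusted p under 0.05 by edgeR's quasi-likelihood test with the replicate number as a block, while 21 were not called. A log2 fold change of 1.5 or more was reached by 11 of the higher genes (23.9%; 3.27% of all genes). The share lower was thus near that of all genes. Trim5, Trim30a, Trim34a and Trim69 passed the count filter only through the 4 IFN-γ libraries and had to differ for that reason. Without them, 15 of 42 were called higher, 7 of them past a log2 fold change of 1.5, and 6 were called lower. Trim12a and Trim30d, among these 7, also needed IFN-γ libraries to pass. The median log2 fold change over the 46 was 0.11, against -0.012 over all genes, and 28 of the 46 (60.9%) changed by less than 0.5 on the log2 scale, against 77.9% of all genes.

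**Figure D1:**
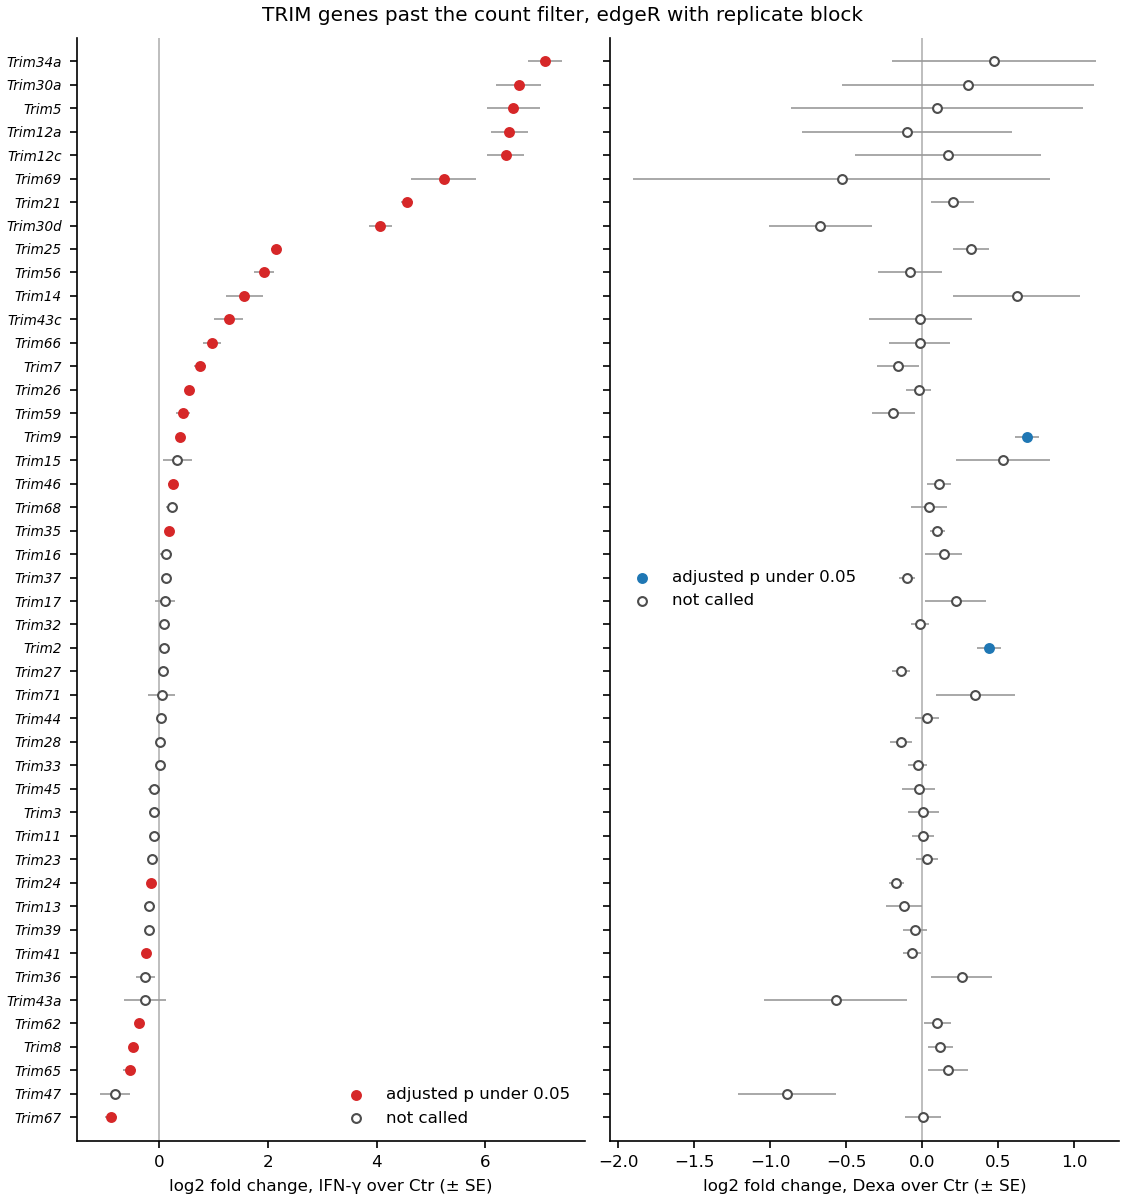
Log2 fold change with its SE (edgeR, replicate block) of the 46 tested TRIM genes in IFN-γ-treated (left) and Dexa-treated OPCs (right) over Ctr-OPCs, ordered by the IFN-γ value; the 2 horizontal scales differ. Filled points have an adjusted p under 0.05: 25 genes on the left, from -0.89 (Trim67) to 7.10 (Trim34a), and Trim9 and Trim2 on the right.

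The largest rises came from one array of duplicated genes on chromosome 7, from 104218793 to 104507849 (GRCm38), which holds Trim5, Trim6, Trim12a, Trim12c, Trim30a, Trim30b, Trim30c, Trim30d, Trim34a and Trim34b. These genes include the mouse relatives of human TRIM5, which recognises the capsid of incoming retroviruses, and Trim30a, known to restrain Toll-like receptor signalling. Because Salmon divides reads among transcripts of similar sequence, the 10 genes were first summed. How similar their transcripts are was not measured. Summed CPM were 2.53, 0.836, 0.476 and 1.08 in Ctr-OPC replicates 1 to 4, were 2, 0.881 and 0.942 in Dexa replicates 1, 2 and 4, and were 75.2, 82.1, 86.5 and 106 in IFN-γ-treated OPCs. Every IFN-γ library lay far above every other library, and the Ctr and Dexa libraries overlapped. The log2 fold change was 6.24 ± 0.32 (SE, adjusted p = 2.23e-07, edgeR) for IFN-γ and 0.066 ± 0.48 (adjusted p = 0.983) for dexamethasone. By the split that Salmon made, Trim12c gave 49.1% of the IFN-γ sum, Trim12a 19.5%, Trim34a 18.5%, Trim30d 5.38%, Trim30a 5.16% and Trim5 2.27%, while Trim6, Trim30b, Trim30c and Trim34b held few reads.

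Trim12c (ENSMUSG00000057143) had 1.01, 0.316, 0.207 and 0.652 CPM in Ctr-OPCs, 0.837, 0.327 and 0.576 in Dexa-treated OPCs and 28.5, 43, 47 and 53.1 in IFN-γ-treated OPCs. Trim12a (ENSMUSG00000066258) went from 0.38, 0.204, 0.103 and 0.0652 CPM to 15, 14.8, 17 and 21.4 with IFN-γ and had 0.354, 0.0504 and 0.157 with dexamethasone. For Trim34a (ENSMUSG00000056144) the 4 Ctr values were 0.217, 0.111, 0.0207 and 0.13 CPM, the 3 Dexa values 0.193, 0.176 and 0.0524, and the 4 IFN-γ values 12.3, 15.5, 17.2 and 19.6. In all 3 genes the IFN-γ libraries stood apart and the Ctr and Dexa libraries overlapped. Log2 fold changes with IFN-γ were 6.37 ± 0.34 for Trim12c, 6.44 ± 0.34 for Trim12a and 7.10 ± 0.31 for Trim34a (SE), with edgeR's adjusted p of 2.91e-07, 2.41e-07 and 6.21e-08.

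The Trim30 genes and Trim5 rose from still fewer reads. Trim30a (ENSMUSG00000030921) had 0.163, 0.0186, 0 and 0 CPM in Ctr-OPCs, 0.0966, 0.0756 and 0 in Dexa-treated OPCs and 8.4, 3.5, 1.64 and 4.53 in IFN-γ-treated OPCs. Trim30d (ENSMUSG00000057596) had 0.679, 0.167, 0.124 and 0.196 CPM in Ctr-OPCs, 0.386, 0.126 and 0.105 with dexamethasone and 8.4, 3.47, 2.16 and 4.79 with IFN-γ. Both copies were highest in IFN-γ replicate 1 and lowest in IFN-γ replicate 3, and each Ctr replicate 1 was also the highest of its group. Their log2 fold changes were 6.61 ± 0.41 and 4.07 ± 0.21 (SE, edgeR's adjusted p = 9.34e-07 and 1.97e-07). Trim5 (ENSMUSG00000060441) had 0.0543, 0.0186, 0 and 0 CPM in Ctr-OPCs, 0, 0.0504 and 0 in Dexa-treated OPCs and 2.51, 1.79, 1.36 and 2.3 with IFN-γ, which was a difference of 6.51 ± 0.49 (log2, SE, adjusted p = 4.29e-06, edgeR). For genes this low the fold rests on a handful of control reads. Over the pooled libraries Trim5 had 3 reads in Ctr-OPCs and 246 in IFN-γ-treated OPCs, a depth-scaled ratio of 113 (exact 95% interval 38.1 to 549, counting error only). The same ratio was 111 (53.7 to 278) for Trim30a from 7 control reads and 142 (90.6 to 236) for Trim34a from 19.

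Trim21 (ENSMUSG00000030966, chromosome 7, 102557921 to 102565486, minus strand) lies outside the array and was the clearest change of the family. Its protein is a cytosolic antibody receptor that marks antibody-coated virus for the proteasome. CPM were 4.45, 3.99, 4.47 and 4.96 in Ctr-OPCs, 5.31, 4.56 and 4.87 in Dexa-treated OPCs and 81.8, 104, 123 and 114 in IFN-γ-treated OPCs. The rise was 4.56 ± 0.11 on the log2 scale (SE, adjusted p = 4.66e-10, edgeR), and the control libraries all held reads and lay close together. In TPM it moved from 1.54 ± 0.155 (SD, n = 4), place 26 among the tested TRIM genes, to 41.6 ± 7.19 (SD, n = 4), place 3.

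Trim69 (ENSMUSG00000033368, chromosome 2, 122160700 to 122179027) had 0, 0, 0.0827 and 0 CPM in Ctr-OPCs, 0.0322, 0 and 0 in Dexa-treated OPCs and 0.695, 0.895, 1.25 and 0.997 in IFN-γ-treated OPCs. All 4 of its control reads were in replicate 3. The log2 fold change was 5.23 ± 0.59 (SE, adjusted p = 8.09e-05, edgeR), and the pooled ratio was 40.1 (exact 95% interval 15.3 to 150). Even with IFN-γ it remained one of the lowest tested TRIM genes, at a mean TPM of 0.426.

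Trim25 and Trim56 were expressed in every library and rose by smaller factors. Trim25 (ENSMUSG00000000275, chromosome 11, 88999376 to 89020293) attaches ubiquitin to the RNA sensor RIG-I and had 5.89, 7.28, 7.14 and 7.24 CPM in Ctr-OPCs, 6.99, 8.51 and 9.69 in Dexa-treated OPCs and 23.4, 26.1, 35.3 and 40.3 in IFN-γ-treated OPCs. Its log2 fold change was 2.15 ± 0.10 with IFN-γ (SE, adjusted p = 1.22e-07, edgeR) and 0.32 ± 0.12 with dexamethasone (adjusted p = 0.334). Trim56 (ENSMUSG00000043279, chromosome 5, 137105644 to 137116209), an antiviral ligase without a PRY-SPRY domain, had 34.6, 28.4, 20.9 and 20.8 CPM in Ctr-OPCs, 37.2, 25.3 and 14.9 in Dexa-treated OPCs and 87.5, 95.5, 98.5 and 104 in IFN-γ-treated OPCs. Control and Dexa libraries of Trim56 were ordered by replicate number in the same way, with number 1 highest, whereas the IFN-γ libraries lay close together. Its rise was 1.93 ± 0.19 on the log2 scale (SE, adjusted p = 3.56e-05, edgeR).

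**Figure D2:**
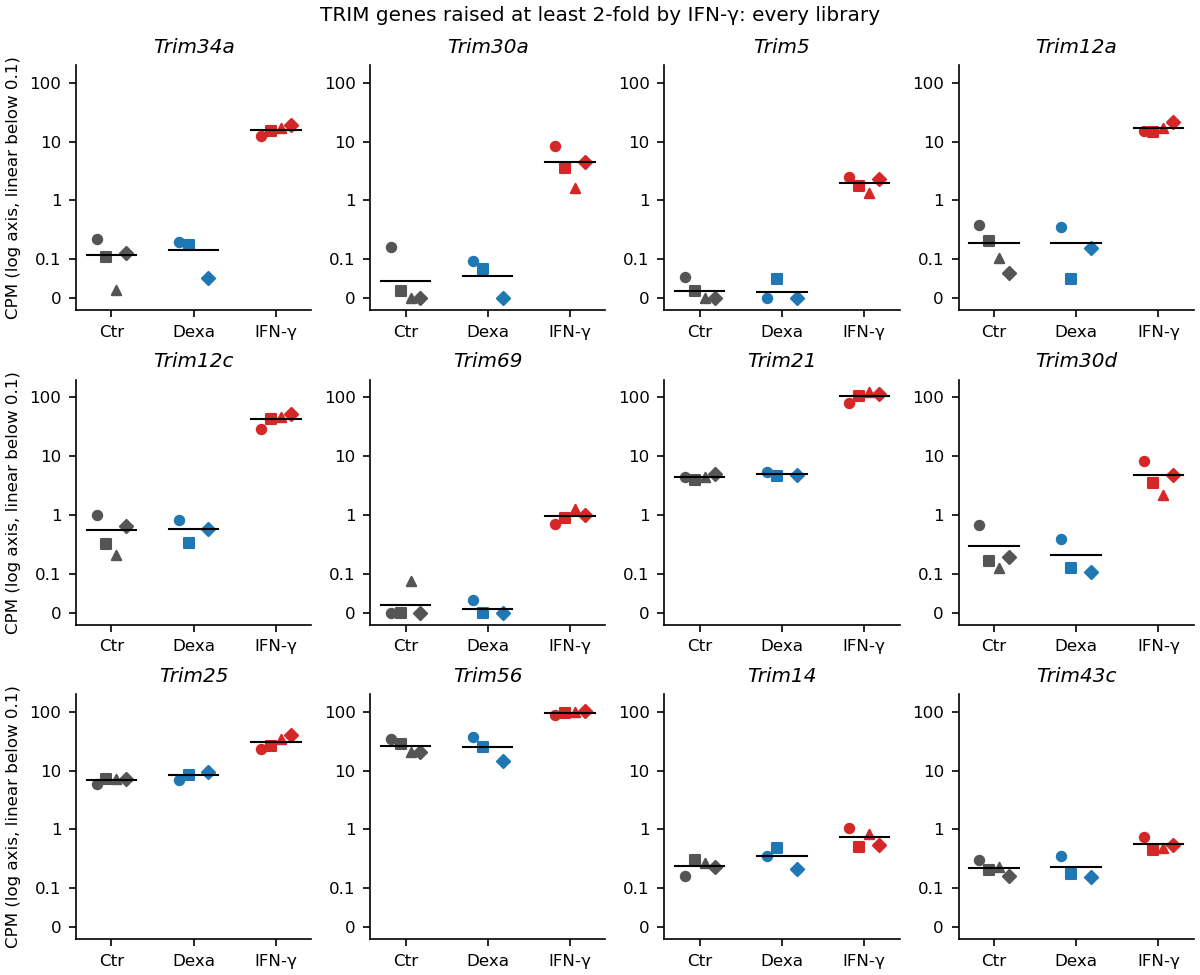
CPM of the 12 TRIM genes raised at least 2-fold by IFN-γ in each of the 11 complete libraries, on a log axis that is linear below 0.1; circles, squares, triangles and diamonds are replicates 1 to 4, and bars are group means. In every panel the 4 IFN-γ libraries lie above all Ctr and Dexa libraries, from Trim43c (means 0.223 and 0.557 CPM in Ctr- and IFN-γ-treated OPCs) to Trim21 (4.47 and 106). The genes were picked for their rise, and Trim5, Trim30a, Trim34a and Trim69 passed the filter only through the IFN-γ libraries. Trim12a and Trim30d also needed IFN-γ libraries to pass. Over all genes tested, the IFN-γ libraries lay wholly above Ctr for 8.94% and wholly above Dexa for 11.4%.

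Trim14 and Trim43c completed the group past a 2-fold rise, both at low counts. Trim14 (ENSMUSG00000039853, chromosome 4, 46493781 to 46536141), an adaptor without a RING that acts with the mitochondrial protein MAVS, had 0.163, 0.297, 0.269 and 0.228 CPM in Ctr-OPCs, 0.354, 0.479 and 0.209 in Dexa-treated OPCs and 1.06, 0.504, 0.836 and 0.537 in IFN-γ-treated OPCs. The log2 fold change was 1.57 ± 0.34 (SE, adjusted p = 0.00549, edgeR), and the difference from Dexa-treated OPCs did not pass (0.95, adjusted p = 0.0822). With an offset for transcript length the log2 fold change of Trim14 was 3.09 over Ctr-OPCs (adjusted p = 0.000145, edgeR). Over Dexa-treated OPCs it was 2.39 and did pass (adjusted p = 0.00199, edgeR). Trim43c (ENSMUSG00000067399, chromosome 9, 88839164 to 88848190), of a cluster of similar copies, had 0.299, 0.204, 0.228 and 0.163 CPM in Ctr-OPCs, 0.354, 0.176 and 0.157 in Dexa-treated OPCs and 0.755, 0.448, 0.488 and 0.537 in IFN-γ-treated OPCs. Its log2 fold change was 1.28 ± 0.26 (SE, adjusted p = 0.00383, edgeR), and how reads were split between Trim43c and its copies is uncertain.

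Transcript assignments of Trim14 and of Trim7 were singled out after their values were seen and are given without a test. In Ctr-OPCs nearly all Trim14 reads went to a transcript annotated as a target of nonsense-mediated decay, with 5.1, 15.3, 12.2 and 7 reads, and 7.2, 8.1, 9.7 and 6.6 reads were assigned to it in IFN-γ-treated OPCs. A processed transcript had 0, 1, 1 and 0 reads in Ctr-OPCs and 19.7, 10.4, 14.8 and 6.1 in IFN-γ-treated OPCs. The protein-coding transcript received 8.2 reads in IFN-γ replicate 1, 1 in Ctr replicate 1 and 0 elsewhere. The rise of Trim14 was therefore counted mainly on a transcript that is not annotated as coding.

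Trim7 (ENSMUSG00000040350, chromosome 11, 48826140 to 48852209), whose protein binds glycogenin, rose by 0.75 ± 0.11 on the log2 scale (SE, adjusted p = 0.000654, edgeR). CPM were 1.85, 2.69, 3.29 and 2.67 in Ctr-OPCs, 1.84, 2.47 and 2.2 in Dexa-treated OPCs and 3.32, 4.64, 5.15 and 4.49 in IFN-γ-treated OPCs. Of its coding transcripts, the 2 with the most reads have separate starts, the upstream one at 48826140 and the downstream one at 48837465. Of the reads on this pair, the upstream transcript took 59.1%, 52.3%, 72.2% and 69.5% in Ctr-OPCs, 69.8%, 57.1% and 74.5% in Dexa replicates 1, 2 and 4 and 90.7%, 86.6%, 86.1% and 89.9% in IFN-γ-treated OPCs. The shares in IFN-γ-treated and Ctr-OPCs did not overlap, and the downstream transcript had 15.1 to 51 reads in Ctr-OPCs and 6.7 to 15.3 in IFN-γ-treated OPCs. In Dexa replicate 3, with 18.1 reads on the pair, all were assigned to the upstream transcript, so this share varies widely at such depth.

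**Figure D3:**
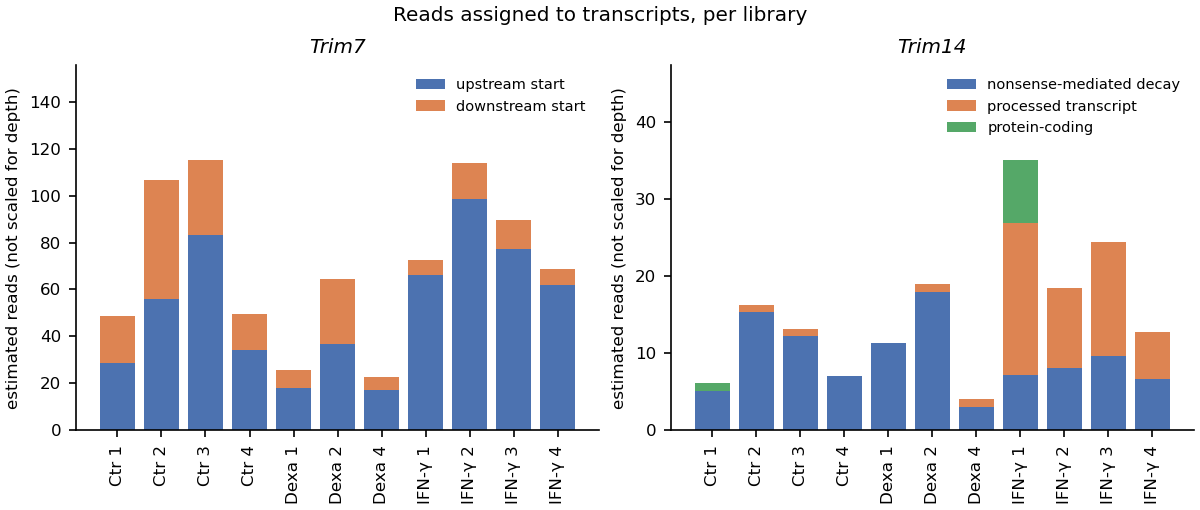
Estimated reads, not scaled for library depth, on 2 transcripts of Trim7 and 3 of Trim14 in the 11 complete libraries. The upstream-start transcript holds 86.1% to 90.7% of the Trim7 pair in the IFN-γ libraries and 52.3% to 74.5% in the others; the processed Trim14 transcript has 6.1 to 19.7 reads in the IFN-γ libraries and at most 1 elsewhere.

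The other 6 higher genes rose by less than 2-fold. Trim66, a bromodomain protein of the corepressor class, had 1.53 to 2.84 CPM in Ctr-OPCs and 2.93 to 5.77 in IFN-γ-treated OPCs (log2 fold change 0.97, adjusted p = 0.00169, edgeR). Trim26, an interferon-responsive PRY-SPRY gene of the MHC region whose promoter is printed above, had 37.9 to 51.2 and 60.4 to 72.7 CPM (0.55, adjusted p = 0.000186). Neither gene's groups overlapped. Trim59 (0.44), Trim9 (0.38), Trim46 (0.25) and Trim35 (0.19) had adjusted p-values of 0.0234, 0.0026, 0.0265 and 0.0102 by edgeR. Trim59 and Trim46 lost their calls when single libraries were left out, in 6 and 7 of 11 cases.

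Decreases were small, and the strongest was in a gene of the neuronal branch. Trim67 (ENSMUSG00000036913, chromosome 8, 124793092 to 124834713), a close relative of Trim9 with a COS and an FN3 domain, had 12, 22.3, 26.1 and 20.8 CPM in Ctr-OPCs, 14, 20.8 and 20.3 in Dexa-treated OPCs and 7.4, 9.26, 13.2 and 13.8 in IFN-γ-treated OPCs. Group ranges overlapped through replicate 1, which was lowest in all 3 groups, while each IFN-γ library lay below the Ctr-OPCs of its own number. Its log2 fold change was -0.89 ± 0.11 (SE, adjusted p = 0.000172, edgeR; 0.0687 without the block).

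Trim8 (ENSMUSG00000025034, chromosome 19, 46501702 to 46516848) is a ligase known to act on SOCS1, an inhibitor of interferon signalling. It had 54.2, 54.9, 43 and 51.7 CPM in Ctr-OPCs, 58.6, 57.5 and 55.8 in Dexa-treated OPCs and 43.4, 34.6, 34.5 and 34.9 in IFN-γ-treated OPCs (log2 fold change -0.47 ± 0.07, SE, adjusted p = 0.000565, edgeR). The lowest Ctr and highest IFN-γ values crossed by less than 1 CPM, and all 4 pairs went down. Trim62 (ENSMUSG00000041000, chromosome 4, 128883580 to 128911328) had 30.8, 33.9, 30 and 35.2 CPM in Ctr-OPCs, 35.7, 34.5 and 36.6 in Dexa-treated OPCs and 29.2, 22.5, 23.9 and 26.1 in IFN-γ-treated OPCs (-0.36 ± 0.08, adjusted p = 0.00595, edgeR). Trim65 (ENSMUSG00000054517, chromosome 11, 116121846 to 116131128), a ligase of the RNA sensor MDA5, had 3.59, 3.68, 3.85 and 3.36 CPM in Ctr-OPCs, 4.09, 3.65 and 4.08 in Dexa-treated OPCs and 2.57, 2.38, 2.89 and 2.15 in IFN-γ-treated OPCs (-0.54 ± 0.12, adjusted p = 0.00683, edgeR). For these last 2 genes every IFN-γ library lay below every Ctr library, which was so for 5.44% of all genes tested. Trim41 (-0.24) and Trim24 (-0.14), a bromodomain cofactor of nuclear receptors, passed with adjusted p-values of 0.0107 and 0.0368, and Trim24 lost its call in 9 of 11 fits that left a library out.

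Dexamethasone changed few TRIM genes. Of 46 tested, 2 were called higher (4.35%; 1.31% of all genes tested), Trim9 and Trim2, and 0 lower (0.262% of all genes). At an unadjusted p under 0.05 there were 3 higher (6.52%; 6.81% of all genes) and 2 lower (4.35%; 4.16% of all genes), the latter Trim24 and Trim47, so these shares were near those of all genes. DESeq2 also called 0 lower with and without the block, against 92 and 7 of all 17919 genes. Comparisons of both treatments share the Ctr-OPCs.

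Trim9 (ENSMUSG00000021071, chromosome 12, 70244533 to 70347614, minus strand), a ligase best known for its part in axon branching downstream of netrin, was among the more abundant members. It had 95.1, 101, 74.5 and 78.1 CPM in Ctr-OPCs, 181, 156 and 115 in Dexa replicates 1, 2 and 4 and 140, 120, 89 and 108 in IFN-γ-treated OPCs. Both treatments stood above the Ctr-OPCs of the same number in every pair of complete libraries. The log2 fold change was 0.69 ± 0.08 with dexamethasone (SE, adjusted p = 0.00238, edgeR) and 0.38 ± 0.07 with IFN-γ (adjusted p = 0.0026), and IFN-γ-treated OPCs were lower than Dexa-treated OPCs by -0.30 (adjusted p = 0.0151). Trim9 is listed whole in the incomplete table of Dexa replicate 3. On the scale of all 12 libraries this library had 96.7 CPM against 74.5 in Ctr replicate 3 but lay below the 102 CPM of Ctr replicate 2, so the Dexa and Ctr groups overlapped, and the Dexa difference was 0.62 (adjusted p = 0.00271). Without the block, edgeR's adjusted p was 0.341 for dexamethasone and 0.229 for IFN-γ, and DESeq2's was 0.0293 and 0.203.

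Trim2 (ENSMUSG00000027993, chromosome 3, 84160439 to 84306877), a ligase of neurofilament light chain, had 32.1, 85.3, 84.9 and 89.7 CPM in Ctr-OPCs, 53.9, 108 and 107 in Dexa-treated OPCs and 36.7, 87.1, 88.3 and 95.8 in IFN-γ-treated OPCs. Replicate 1 was low in all 3 groups, and the difference between replicate numbers exceeded that between treatments. The rise with dexamethasone was 0.44 ± 0.08 (SE, adjusted p = 0.034, edgeR). It was 0.20 with an adjusted p of 0.654 under the transcript length offset, and the call was also lost in 8 of 11 fits that left a library out and in both tools without the block.

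**Figure D4:**
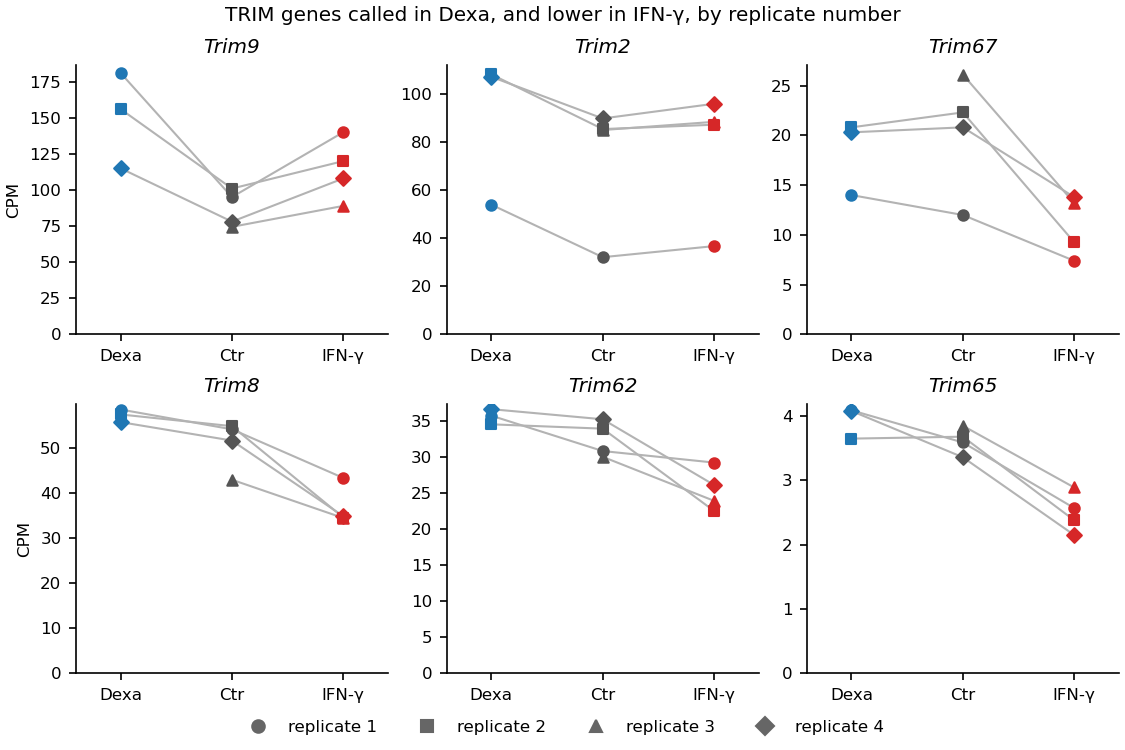
CPM of Trim9 and Trim2, called higher in Dexa-treated OPCs, and of the 4 members with the lowest adjusted p among those lower with IFN-γ, in the complete libraries; lines join libraries of the same replicate number. Trim9 rises from Ctr on both sides in every pair joined, with no Dexa point for replicate 3. Trim2 is lowest in replicate 1 throughout, and Trim67, Trim8, Trim62 and Trim65 go down from Ctr to IFN-γ in all 4 pairs.

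In the direct comparison of the treatments, 17 of 46 were higher (37.0%; 17.2% of all genes tested) and 6 lower (13.0%; 16.6% of all genes) in IFN-γ-treated than in Dexa-treated OPCs. Trim5, Trim30a, Trim34a and Trim69, among the 17, passed the filter only through the IFN-γ libraries. Without these genes 13 of 42 were higher (31%), still counting Trim12a and Trim30d, which also needed IFN-γ libraries to pass. The lower genes were Trim2, Trim8, Trim9, Trim62, Trim65 and Trim67. Among the higher ones were Trim27 and Trim37, neither of which was called against Ctr-OPCs in either treatment.

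The genes were sorted by carboxy-terminal domain. With IFN-γ, 16% of all genes tested were called higher and 15.3% lower, and the counts per class stand against these shares. Of 36 PRY-SPRY genes with a RING, 24 were tested, of which 13 were called higher, 3 lower and 8 not. Without Trim5, Trim30a, Trim34a and Trim69, 9 of 20 were called higher, with a median log2 fold change of 0.21. Of the 9, Trim12a and Trim30d also needed IFN-γ libraries to pass the filter. The 8 not called were Trim11, Trim15, Trim17, Trim27, Trim39, Trim43a, Trim47 and Trim68, with values from -0.81 (Trim47, adjusted p = 0.0521) to 0.34 (Trim15, adjusted p = 0.391) by edgeR. Of the RING-less PRY-SPRY genes, Trim14 was called and Trim16 was not (0.13). All 4 NHL genes, Trim2, Trim3, Trim32 and Trim71, were tested and none was called with IFN-γ by edgeR, with a median of 0.071. The 4 tested COS-FN3 genes of microtubule-bound ligases split into Trim9 and Trim46 higher, Trim67 lower and Trim36 not called (-0.25). Among the PHD-bromodomain genes Trim66 was higher, Trim24 lower, and Trim28 and Trim33 were not called. Trim13 (-0.18), Trim23 (-0.12), Trim37 (0.12), Trim44 (0.033) and Trim45 (-0.10) were not called either. The COS-only genes Trim54, Trim55 and Trim63, known from muscle, did not pass the filter. Of 18 TRIM genes listed from general knowledge as interferon-responsive in other cells, 13 were tested and 13 called higher. Without the 4 that passed through the IFN-γ libraries alone, 9 of 9 were called higher, with a median log2 fold change of 2.15. Those 9 include Trim12a and Trim30d, which also needed IFN-γ libraries to pass. The list of 18 was written with results of these data known.

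Levels set the changes in proportion. In TPM, 27 of the 68 genes had a mean of at least 1 in Ctr-OPCs, 28 in Dexa-treated and 32 in IFN-γ-treated OPCs. Trim28, the corepressor that KRAB zinc-finger proteins recruit to silence retroelements, was highest in every group, with 158 ± 12.4 TPM in Ctr-OPCs (SD, n = 4) and 28.2% to 36.6% of the summed TRIM TPM of a library. Its CPM were 446, 441, 355 and 358 in Ctr-OPCs, 377, 398 and 334 in Dexa-treated OPCs and 467, 438, 395 and 332 in IFN-γ-treated OPCs, so the groups overlapped (IFN-γ 0.026 ± 0.06, adjusted p = 0.791; Dexa -0.14 ± 0.07, adjusted p = 0.504; log2 fold change, SE, edgeR). Trim35, Trim44 and Trim27 followed in Ctr-OPCs at 35.9 ± 4.84, 29.8 ± 3.13 and 26.7 ± 2.45 TPM (SD, n = 4). Trim28 lay above these 3 in every Ctr library, whereas each of the 3 neighbours reached or overlapped the range of the next.

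Trim35 (ENSMUSG00000022043) had 209, 216, 168 and 184 CPM in Ctr-OPCs, 226, 226 and 193 in Dexa-treated OPCs and 237, 242, 205 and 202 in IFN-γ-treated OPCs. Group ranges overlapped, and all 4 pairs were higher with IFN-γ. Trim44 (ENSMUSG00000027189), which has a ubiquitin-protease-type zinc finger in place of the RING, had 237, 253, 269 and 277 CPM in Ctr-OPCs, 242, 259 and 301 in Dexa-treated OPCs and 274, 276, 242 and 266 in IFN-γ-treated OPCs, with no common direction among the pairs. All TRIM genes together held 0.187% to 0.208% of the reads in Ctr-OPCs, 0.192% to 0.206% in Dexa-treated and 0.216% to 0.237% in IFN-γ-treated OPCs.

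**Figure D5:**
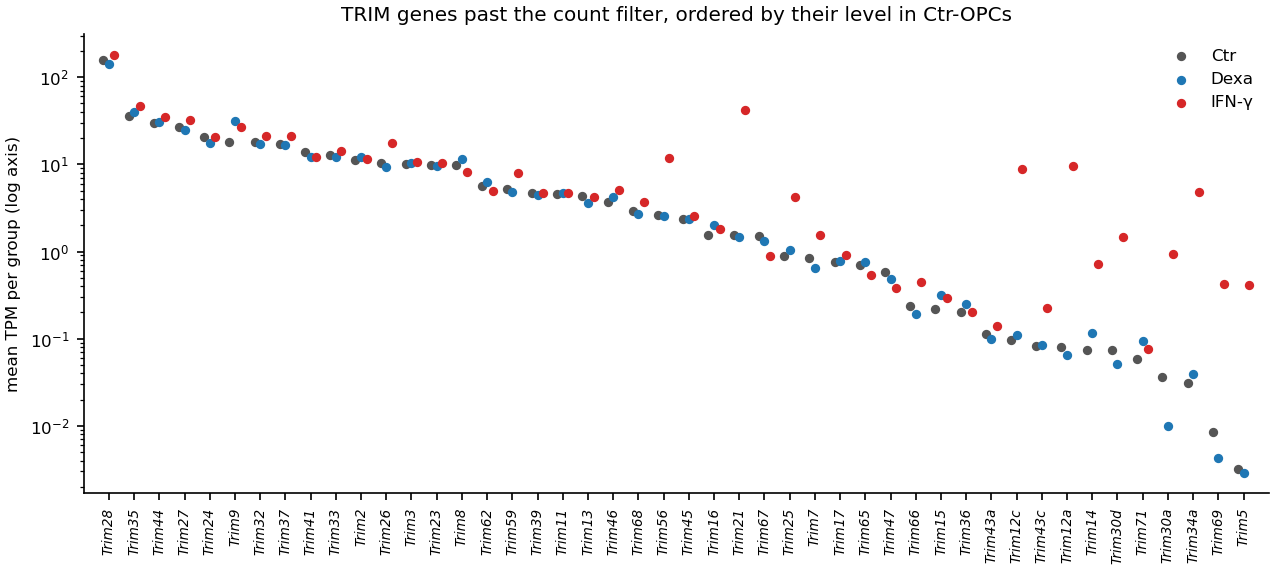
Mean TPM (log axis) of the 46 tested TRIM genes in each group, ordered by the level in Ctr-OPCs; the Dexa and IFN-γ groups are the 3 and 4 complete libraries. Trim28 leads in all groups, and the genes with the widest gap between the red and the other points, such as Trim34a, Trim12a and Trim21, lie in the lower part of the control order.

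Genes that work with TRIM proteins were described from lists of partners, whose counts stand against the 16% of all genes called higher and 15.3% called lower with IFN-γ. Of 17 genes for nucleic acid sensing on which TRIM ligases act, 8 were called higher with IFN-γ and 0 lower by edgeR, with a median log2 fold change of 0.47, and 0 were called with dexamethasone. The largest were Ifih1, which encodes MDA5 (6.21 ± 0.26), Ddx58, which encodes RIG-I (3.58 ± 0.11), Irf7, a transcription factor of the interferon response (3.45 ± 0.19), and Zc3hav1, an antiviral RNA-binding protein that works with TRIM25 (3.26 ± 0.17; SE each). Among 15 ubiquitin-activating and -conjugating enzymes 4 were called higher, Ube2l6, which serves ISG15 conjugation, by 4.33 ± 0.18 and Uba1, Ube2e1 and Ube2v1 by 0.17 to 0.22. Of the 10 partners of TRIM28 in gene silencing, Hdac1 was higher (0.28) and Chd3 lower (-0.40) with IFN-γ, and Chd3 was also lower with dexamethasone (-0.49, adjusted p = 0.0102, edgeR). Among 8 autophagy partners Map1lc3b was lower with IFN-γ (-0.32). TRIM proteins under other symbols included Pml, the organiser of nuclear bodies, which rose by 1.70 ± 0.11 (SE, adjusted p = 1.23e-06, edgeR), Mid1 (0.63) and Cmya5 (-0.63), while Mid2 was not called and Mefv did not pass the filter.

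Several members overlap other genes in the annotation. The protein-coding gene on the opposite strand held a mean of 888 CPM in Ctr-OPCs for Trim41 (Rack1), 41.9 for Trim46 (Krtcap2), 40.1 for Trim14 (Nans) and 28.9 for Trim7 (Gm12184). Trim47 and Trim65 overlap on the same strand. The library kit kept strand, the strand setting of the quantification is not given in the sources used here, and the part of shared reads in these values was not tested.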

How the data were processed

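RNA-seq libraries of untreated, Dexa- and IFN-γ-treated OPCs were taken as the authors deposited them, as Salmon tables (version 0.8.2 per the labels) with an estimated count and a TPM value per transcript. Transcript identifiers all matched Ensembl release 96 (GRCm38). A further 3 files with the authors' DESeq2 results (mean counts, fold changes, p-values) were not used. The TRIM genes, lists and motifs were chosen with earlier results of these data known.

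Estimated counts were summed per gene and rounded. Dexa replicate 3, whose table stopped part-way, entered only a fit over genes listed whole. Genes reaching 10 counts in 4 or more of the 11 complete libraries were tested with edgeR 4.0.16 (R 4.3.3; TMM, quasi-likelihood, all groups in one fit, Benjamini-Hochberg over 17919 genes), with the replicate number as a block. The study names DESeq2 without a formula, and DESeq2 1.42.0 was an alternative. A call is an adjusted p under 0.05; SE is the log2 fold change over the square root of F. The numbers were taken as pairing the libraries, since the replicates came from different litters and deviations of same-numbered libraries correlated at 0.414 to 0.745 (10 pairs), against -0.646 to 0.526 (30 pairs of different numbers). No replicates agreed within sampling noise. The edgeR and DESeq2 fits with the block were also run on simulated counts. PCR copies were not told apart from molecules, so intervals cover counting error only.

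Per-library values are given for members called with IFN-γ at an absolute log2 fold change of at least 1, members called with dexamethasone, the 3 with the highest mean TPM and the 4 lower with the lowest adjusted p; other genes are named with a fold or range, and untested ones by name. Alternatives were no block, DESeq2 with and without it, median-of-ratios scaling, no filter or 20 counts, a transcript length offset, 12 libraries, and leaving out each library.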

Additional observations from a re-analysis of the deposited data

Results flagged for a closer look

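Among 92 groups of 4 libraries (46 genes in Ctr- and IFN-γ-treated OPCs), 7 had 1 library far from the other 3 by Dixon's ratio on log2(CPM + 0.1), where chance flags about 1 in 20 groups, or 4.6. Trim2 was at 32.1 CPM in Ctr replicate 1 (the others at 84.9 to 89.7) and at 36.7 CPM in IFN-γ replicate 1 (87.1 to 95.8). Trim8 was at 43.4 CPM in IFN-γ replicate 1 (34.5 to 34.9), Trim23 at 36.1 CPM in IFN-γ replicate 1 (50.6 to 52.9) and Trim25 at 5.89 CPM in Ctr replicate 1 (7.14 to 7.28). Replicate 1 was thus the library apart in 5 of the 7. Trim36 was at 0.966 CPM in Ctr replicate 2 (1.17 to 1.22), and Trim69 at 0.0827 CPM in Ctr replicate 3 (0 in the others). With the others at 0, Dixon's ratio for Trim69 is 1 whatever the gap, which was 4 reads here.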

How the results depend on the processing

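Under 19 alternatives no called TRIM gene reversed. Trim12a, Trim12c, Trim21, Trim25, Trim26, Trim30a, Trim30d, Trim34a, Trim5, Trim56, Trim69, Trim14, Trim43c, Trim8, Trim62 and Trim65 kept their IFN-γ calls wherever they were tested, counting for Trim5, Trim30a, Trim34a and Trim69 the fits with the genes held fixed. Without the replicate block, edgeR called 16 of 46 with IFN-γ (13 higher, 3 lower) against 25, 0 with dexamethasone against 2, and 15 against 23 between treatments (3 lower). The calls of Trim9, Trim7, Trim66, Trim67, Trim41, Trim24, Trim35, Trim46, Trim59 and Trim2 were among those lost. Calls over all 17919 genes fell too, to 1086 higher and 427 lower with IFN-γ from 2871 and 2735. They fell to 21 and 1 with dexamethasone from 235 and 47, and to 1015 and 556 between treatments from 3076 and 2969. DESeq2 without the block called 1 with dexamethasone and 3 lower between treatments, and the transcript length offset 1 with dexamethasone. Over all genes, DESeq2 without the block called 91 higher and 7 lower with dexamethasone and 973 lower between treatments. The offset called 196 of all genes higher and 35 lower with dexamethasone. With 12 libraries, only 14 members could be tested, with 7 called with IFN-γ (4 higher, 1 past a log2 fold change of 1.5, and 3 lower), 1 with dexamethasone and 7 between treatments (4 higher, 3 lower). Of the 6319 genes tested there, 984 were higher (197 past 1.5) and 1056 lower with IFN-γ. With dexamethasone 90 were higher and 29 lower, and between treatments 1225 and 1205. Leaving out 1 library gave 18 to 26 calls with IFN-γ (13 to 19 higher, 5 to 7 lower, 6 to 11 past 1.5), 1 to 2 with dexamethasone and 18 to 23 between treatments (12 to 17 higher, 5 to 6 lower). Over all genes these fits called 2107 to 2937 higher (446 to 591 past 1.5) and 1971 to 2843 lower with IFN-γ. They called 70 to 322 higher and 7 to 72 lower with dexamethasone. Between treatments they called 2143 to 2964 higher and 1965 to 3014 lower. The low counts of higher TRIM genes came without an IFN-γ library, where Trim5, Trim30a, Trim34a and Trim69 could no longer pass the filter. With the genes held fixed, chosen after seeing the data, the ranges were 22 to 27 with IFN-γ (17 to 20 higher, 5 to 7 lower, 10 to 11 past 1.5), 1 to 2 with dexamethasone and 19 to 24 between treatments (14 to 18 higher, 5 to 7 lower). The summed chromosome 7 array gave 5.93 (without Ctr replicate 3) to 6.79 with IFN-γ and -0.32 to 0.7 with dexamethasone. The 22 members below the filter had at most 44 reads over the 11 complete libraries. Those with any reads were tested only in the fit with no filter, which covered 67 members.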

Other observations

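Trim29, below the count filter and singled out after its values were seen, had 10, 15 and 7 reads in Dexa replicates 1, 2 and 4, against 0, 3, 0 and 1 in Ctr-OPCs and 0, 3, 0 and 0 in IFN-γ-treated OPCs. With 3 complete Dexa libraries, a gene expressed in that group alone cannot pass the filter. In the fit with no filter Trim29 was 3.45 higher on the log2 scale than in Ctr-OPCs (adjusted p = 0.0371, edgeR). That fit called 3 of 67 members higher with dexamethasone, against 445 of all 33403 genes. Trim80 had 4, 5, 2 and 3 reads in Ctr-OPCs, 1, 1 and 0 in Dexa-treated and 0 in all 4 IFN-γ-treated libraries, and did not pass in that fit (adjusted p = 0.0767).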
